A study of Mus musculus with 16 samples.

Results

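Of the 16 mouse rhabdoid tumors in the raw count table, 11 grew outside the central nervous system and belong to the Myc subgroup, and these were compared by the day on which the dam received tamoxifen: 3 tumors induced at E6 or E7 against 8 induced at E8. The members were taken from the location and time point labels alone, with no expression value used. Every mouse carried the same alleles, Smarcb1flox/flox;R26-CreERT2, on a mixed background, so that a ubiquitously expressed Cre deletes Smarcb1 wherever tamoxifen acts, and each tumor came from a different mouse. Mice were killed at an endpoint set by neurological signs and weight loss or, for extracranial tumors, by tumor size. The early group held an E6 tumor of the back from a female aged 210 days, an E6 intracranial tumor aged 170 days whose sex is not given, and an E7 intracranial tumor from a male aged 147 days. The E8 group held 4 extracranial tumors, of the jaw at 80 and 123 days, of the nose at 90 days and of the mouth at 84 days, and 4 intracranial tumors at 52, 90, 106 and 115 days. Intracranial here means inside the skull but outside the brain, and the nose and 52-day tumors came from males while the other 6 E8 tumors came from females. The 5 intra-CNS tumors of the same table served only as an outside reference. All 5 were induced at E6, a day of the early group, so it was asked whether the early Myc tumors lie nearer to them. Within this reference the day of tamoxifen and the location inside the central nervous system cannot be told apart.

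Rhabdoid tumors are early childhood cancers driven by loss of SMARCB1, a core subunit of the SWI/SNF chromatin remodelers that open enhancers during development. Because the same deletion can be switched on at different embryonic days, the cells that are hit differ: around E6 to E7 the embryo is an epiblast entering gastrulation, whereas by E8 the neural folds, neural crest, somites and heart field are forming. The comparison therefore asks whether the Myc tumors keep a transcriptional trace of the day on which Smarcb1 was lost.

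Total counts were 21703251 to 67547714 in the early group and 17889968 to 110177889 in the E8 group, so a floor of 3 counts lay between 0.0272 and 0.168 CPM (counts scaled to the library total). Age did not overlap between the groups (mean 176 days against 92.5 days, difference 83.2 days, exact two-sided permutation test, p = 0.00606, the smallest this design can give), so the day of tamoxifen and the age at collection cannot be told apart. Both groups held tumors inside and outside the skull, with 2 of 3 early and 4 of 8 E8 tumors intracranial (Fisher's exact test, two-sided, p = 1.0). With so few tumors this test has little power and does not show balance. The extracranial E8 tumors were all of the jaw, nose or mouth, and the only extracranial early tumor was of the back. Among extracranial tumors the body region and the day of tamoxifen therefore cannot be told apart. The nose tumor is extracranial in its label, while the mouse table of the study places it inside the skull, and it was kept as extracranial. One library stood apart: the E8 intracranial tumor aged 115 days held 199500 TPM (a level corrected for gene length and scaled to the library) of Ttr, the thyroid hormone carrier made by the choroid plexus, which took 10.1% of its counts, and was farthest out on the first principal component, which carried 21.7% of the variance. In the other 10 tumors the Ttr level was at most 1.09 TPM.

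The targeted gene did not separate the groups. Smarcb1 was measured at 26.1 TPM in the E6 back tumor, 11.7 in the E6 intracranial tumor and 10.7 in the E7 tumor, against 6.48 to 43.7 in the E8 tumors with a median of 14.4. The edgeR log2 difference, early minus E8, was -0.16 ± 0.62 (SE), and its sign turned under several alternatives. A level across the whole transcript in tissue that also holds host cells does not measure the deleted exons alone. Myc, the transcription factor that gives the subgroup its name, was at 87.0, 225 and 114 TPM in the same order and at 8.73 to 203 TPM in the E8 tumors, with a log2 difference of 0.17 ± 0.61. Xist, the transcript of the inactive X chromosome, was at 162 TPM in the E6 back tumor and at 0.0266 and 0.0672 in the other early tumors. Ddx3y, a gene of the Y chromosome, was at 0, 32.0 and 41.6 TPM. The tumor of unstated sex thus carried the transcripts of a male, and the 5 sex-linked genes had a median log2 difference of 1.16. This median was 2.16 without the male nose tumor and 0.61 without the E7 tumor. Against the E8 tumors aged 100 days or more, all from females, it was 12.28.

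No gene passed the test between the groups. Of 21261 genes tested with edgeR's quasi-likelihood test, 0 (0%) had a Benjamini-Hochberg adjusted p under 0.05 with an absolute log2 difference above 1, and the smallest adjusted p was 0.351, for Myo3b. At an unadjusted p under 0.05, 747 genes (3.51%) were counted, 537 of them with higher levels in the early tumors (2.53%) and 210 with lower levels (0.988%). A share of 0.05 would be found with no difference at all. limma on log2(TPM + 1) also called 0 genes, with 514 at an unadjusted p under 0.05. With the same counts, DESeq2 (Wald test) called 39 of 16751 genes (0.233%), 21 higher and 18 lower in the early tumors. Of the 21, Syt13 and Galnt15 had a difference of the opposite sign in edgeR, at -1.47 and -0.21 against 2.73 and 1.55 by DESeq2, and each was highest in 1 E8 tumor, at 54.5 TPM of Syt13 in the nose tumor and 20.8 TPM of Galnt15 in the intracranial tumor aged 106 days. The standard error of the log2 difference over the 14274 genes whose mean count reached 50 had a median of 0.459 and an upper quartile of 0.816. In simulated counts of the same 3 against 8 libraries, edgeR recovered 12% of genes changed 4-fold, 53% of those changed 8-fold and 67.5% of those changed 16-fold. Changes up to 4-fold were thus mostly below what these 11 tumors can show, and a call of 0 does not mean that the groups were alike.

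**Figure D1:**
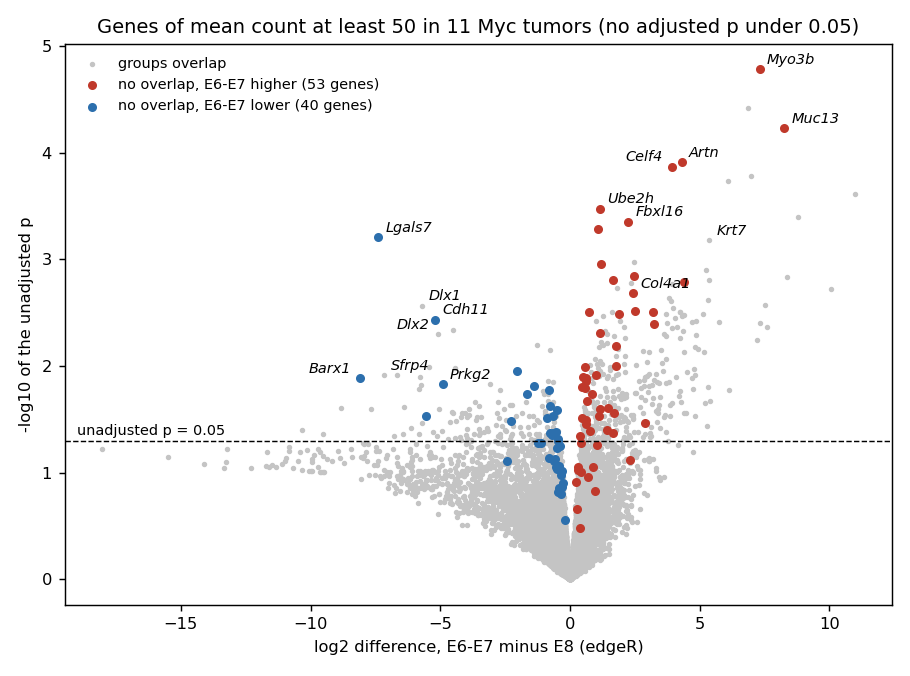
Each point is 1 of 14274 genes whose mean count reached 50, placed by its edgeR log2 difference (E6-E7 minus E8) on the horizontal axis and by -log10 of its unadjusted p on the vertical axis, with the genes whose groups do not overlap in colour. Myo3b and Muc13 lie at the upper right and Lgals7 at the upper left, and no point passes an adjusted p of 0.05.

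Genes whose early and E8 tumors did not overlap in normalized counts, among those whose mean count reached 50, numbered 53 with all early tumors above all E8 tumors (0.371%) and 40 with all early tumors below (0.28%). These are the genes described next, with values as a description of tumors and not as calls.

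Among genes with higher levels in the early tumors, Myo3b, an unconventional myosin of sensory hair cell protrusions, had the smallest p. It was at 36.3 TPM in the E6 back tumor, 1.18 in the E6 intracranial tumor and 1.90 in the E7 tumor, against 0.0166 to 0.233 in the E8 tumors. Muc13, a membrane mucin of gut epithelium, was at 40.2, 0.187 and 1.89 TPM in the same order and at 0 to 0.0920 TPM in the E8 tumors. For both genes the back tumor was far above the other early tumors. Their log2 differences were 7.31 ± 1.03 and 8.27 ± 1.34 (SE), and 4.10 and 4.36 without the back tumor. Muc13 passed DESeq2's threshold and Myo3b received no adjusted p from DESeq2.

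Artn, which encodes artemin, a ligand of the GDNF family that acts on peripheral neurons through GFRA3 and RET, was more evenly spread. Its levels were 21.3, 4.47 and 30.0 TPM in the early tumors and 0.237 to 2.27 in the E8 tumors, with a median of 0.593. The log2 difference was 4.30 ± 0.76, with an adjusted p of 0.00018 in DESeq2, and Artn kept that call whichever of the 11 tumors was left out. Celf4, a neuronal RNA-binding protein, was at 76.9, 5.55 and 31.4 TPM against 0.797 to 4.26. DESeq2 called Celf4 with an adjusted p of 0.000892, except when the E6 back tumor was left out.

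A further set of genes was present in every tumor and differed less. Ube2h, a ubiquitin-conjugating enzyme, was at 114, 57.4 and 134 TPM in the early tumors and at 35.5 to 52.7 TPM in the E8 tumors, a log2 difference of 1.17 ± 0.23. Mtmr9, a catalytically inactive member of the myotubularin family, was at 74.7, 59.7 and 127 TPM against 29.7 to 47.0. Fbxl16, an F-box protein, was at 37.3, 17.7 and 45.2 TPM against 2.10 to 12.4. In each of the 3 genes the E6 intracranial tumor was the early tumor closest to the E8 range. Tmem150a, a membrane protein that takes part in phosphoinositide synthesis, was at 194, 46.7 and 117 TPM, and the E6 intracranial tumor lay at the edge of the E8 range of 15.3 to 46.6 TPM.

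Lgals7, galectin-7, a carbohydrate-binding protein of stratified epithelia, was the clearest gene in the other direction. It was at 1.58, 0.399 and 0.672 TPM in the early tumors, and each of the 8 E8 tumors held at least 21.4 TPM, with a median of 58.5 and a highest value of 708 in the jaw tumor aged 123 days. The log2 difference was -7.39 ± 1.59, and DESeq2 gave it an adjusted p of 5.78e-08 and called it whichever tumor was left out. Krt10, a keratin of differentiating epidermis, overlapped between the groups, and was at 1.52 to 3.26 TPM in the early tumors and at 1.97 to 469 in the E8 tumors with a median of 3.02.

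Cdh11, the cadherin of mesenchymal cells and of migrating cranial neural crest, was at 5.43, 2.75 and 5.68 TPM in the early tumors. In the E8 tumors it was at 6.86 TPM in the intracranial tumor aged 90 days, at 16.7 in the one aged 52 days and at 424 in both the nose tumor and the jaw tumor aged 123 days, with a median of 98.9. DESeq2 called Cdh11 in the full comparison (adjusted p = 0.000892) and in each fit with 1 tumor left out, while edgeR gave a log2 difference of -5.19 ± 1.43. Barx1, a homeobox gene of the facial mesenchyme and the stomach wall, was at or under 0.0770 TPM in the early tumors and at 0.109 to 59.1 TPM in the E8 tumors. Only the jaw tumor aged 123 days and the intracranial tumor aged 52 days, at 59.1 and 17.6 TPM, held more than 2 TPM.

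The remaining genes of lower level in the early tumors differed less or were scarce. Car11, a carbonic anhydrase-related protein, was at 4.90 to 8.30 TPM against 8.42 to 51.1. Prkg2, a cGMP-dependent protein kinase that promotes growth plate cartilage, was at 0.0544 to 0.220 TPM against 0.295 to 20.6, the highest in the jaw tumor aged 80 days. Rapgef6, a guanine nucleotide exchange factor, was at 7.04 to 11.1 TPM against 11.2 to 28.2. Tpst1, which sulfates tyrosines of secreted proteins, and Grtp1, a Rab GTPase-activating domain protein, were apart in normalized counts but touched in TPM, at 28.9 to 56.0 against 51.2 to 268 TPM for Tpst1 and at 0.848 to 2.14 against 2.05 to 7.0 TPM for Grtp1.

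**Figure D2:**
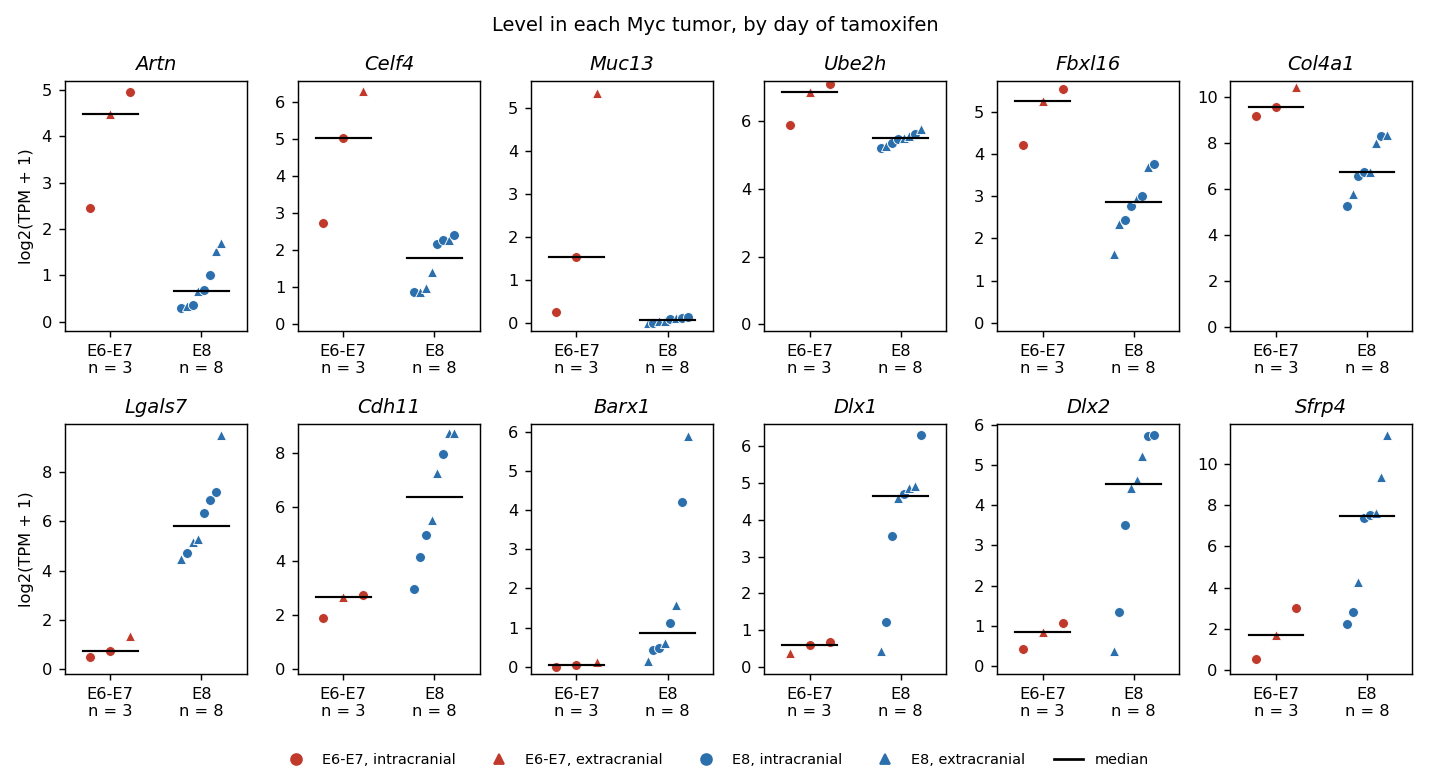
Level of 12 genes in each of the 11 tumors as log2(TPM + 1), with 3 E6-E7 tumors in red and 8 E8 tumors in blue, circles for intracranial and triangles for extracranial tumors, and a line at the group median. The top row holds genes of higher level in the early tumors and the bottom row genes of lower level, and Dlx1 and Dlx2 overlap through 1 E8 tumor and Sfrp4 through 2.

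Of the 39 genes that DESeq2 called, 12 higher and 4 lower genes had groups that did not overlap, and 23 had groups that overlapped. Of the 39, 10 stayed called in each of the 11 fits that left out 1 tumor, 4 of them higher and 6 lower in the early tumors. Besides Artn and Muc13 the higher ones were 3830403N18Rik and E230032D23Rik. 3830403N18Rik was at 89.4 and 89.0 TPM in the E6 tumors of the back and skull, at 0.501 in the E7 tumor and at 0.119 to 1.14 in the E8 tumors, so that it followed the E6 tumors alone. It was also the single gene that edgeR called when the 2 E6 tumors were set against the 8 E8 tumors (adjusted p = 0.0162). E230032D23Rik was at 4.08, 5.27 and 1.32 TPM against 0.0384 to 0.636. With site as a covariate DESeq2 called 50 genes, 23 of them among the 39. Without the E6 back tumor it called 117 genes, without the E7 tumor 142, without the E6 intracranial tumor 167 and without the E8 intracranial tumor aged 115 days 60, so the set of calls changed from fit to fit. A fit without an early tumor leaves 2 in that group, too few for DESeq2's default filter of genes with outlying counts to act there. How far this change of filter, rather than the tumor left out, moved the number of calls was not tested.

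The lower genes that DESeq2 kept whichever tumor was left out included Dlx1 and Dlx2, neighbouring homeobox genes that specify forebrain interneurons and pattern the pharyngeal arches. Dlx1 was at 0.302, 0.599 and 0.512 TPM in the early tumors. Of the 8 E8 tumors, 6 held 10.7 to 77.7 TPM of Dlx1, while the nose tumor held 0.341 and the intracranial tumor aged 115 days held 1.34. Dlx2 was at 0.806, 1.09 and 0.339 TPM in the early tumors, at 10.4 to 52.5 TPM in the same 6 E8 tumors, and at 0.295 and 1.55 TPM in the nose tumor and the one aged 115 days. Both genes thus stood at 10 TPM or more in the same 6 E8 tumors, intracranial and extracranial, and the groups overlapped through the nose tumor. The edgeR log2 differences were -5.72 ± 1.5 and -5.07 ± 1.47, and DESeq2 gave adjusted p values of 0.00018 and 0.00286. Dlx1as, a transcript antisense to Dlx1 whose reads may not be separable from those of Dlx1, followed it at 0.0375 to 0.341 TPM in the early tumors and 4.12 to 64.7 in those 6 E8 tumors. The related pair Dlx5 and Dlx6 behaved otherwise: the E6 intracranial tumor held 32.6 and 21.0 TPM, close to the E8 jaw tumor aged 80 days (33.2 and 35.4) and the E8 intracranial tumor aged 106 days (35.01 and 28.9), and the other 8 tumors held at most 1.81 TPM of either gene.

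Sfrp4, a secreted Wnt antagonist of mesenchyme and bone, was also kept by DESeq2 (adjusted p = 0.00148), at 2.27, 7.13 and 0.477 TPM in the early tumors and at 3.71 to 2643 TPM in the E8 tumors. The E8 intracranial tumors aged 90 and 115 days, at 3.71 and 5.95 TPM, lay inside the early range. Alx1, a frontonasal homeobox gene, was at 0.0841, 0.318 and 2.94 TPM in the early tumors and reached 521 TPM in the nose tumor, but the E8 jaw tumor aged 123 days held only 0.0570 TPM. DESeq2 called Alx1 (adjusted p = 0.0265) and lost that call without the nose tumor, without the E8 intracranial tumor aged 90 days and without either the E6 back or the E6 intracranial tumor.

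Genes were next read in lists by role, and no member of any list was called by edgeR. The 22 factors of neural crest and craniofacial mesenchyme had a median log2 difference of -0.34, against -0.13 over all genes tested, with 16 negative and 6 positive, and it was -0.14 without the E6 back tumor and -2.30 without the E6 intracranial tumor. Their summed level was lowest in the E6 back tumor, at 101.4 TPM, but the E7 tumor held 916 TPM, inside the E8 range of 335 to 1108. Pax3, a neural crest and somite factor, was at 92.8 TPM in the E6 intracranial tumor and at 0.0271 and 0.132 in the other early tumors, against 0.0377 to 4.35 in the E8 tumors, so its difference of 4.75 ± 1.69 rested on 1 tumor and was -3.84 without it.

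Hox genes mark position along the body axis, with low paralog numbers toward the hindbrain and high numbers toward the tail. All 3 Hox lists had positive medians of the log2 difference, at 1.28 for paralog groups 1 to 4, 1.27 for groups 5 to 8 and 1.12 for groups 9 to 13. Of their genes, 8 of 12, 8 of 11 and 11 of 16 were positive, and 0, 0 and 4 had an unadjusted p under 0.05, where the background in that direction was 2.53%. The summed level of groups 5 to 8 was 352 TPM in the E6 back tumor and 216 and 206 TPM in the intracranial early tumors, against 12.4 to 276 TPM with a median of 128 in the E8 tumors. The back tumor thus lay above the E8 range and the intracranial early tumors inside it, and 1 E8 tumor, the intracranial one aged 90 days, was above both of the latter. Hoxc6 was at 91.2, 70.4 and 59.7 TPM against 1.12 to 62.3, and Hoxc8 at 68.8, 49.7 and 132 TPM against 1.29 to 111. Hoxc4 was at 47.1, 25.7 and 27.5 TPM against 0.753 to 38.3.

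The early tumors differed among themselves in single Hox genes. Hoxd13, a gene of the distal limb and the genital bud, was at 47.0 TPM in the E7 tumor, 4.38 in the E6 intracranial tumor and 0.127 in the back tumor, against 0 to 2.44 in the E8 tumors. Hoxd9 was at 20.1, 13.6 and 3.35 TPM against 0 to 14.4, and Hoxa2 was at 21.2, 3.04 and 0.0411 TPM against 0 to 4.92. Hoxd3 was at 0.506, 10.2 and 0.0629 TPM against 0 to 6.27. DESeq2 called it higher (adjusted p = 0.0284) and kept that call in 3 of the 11 fits with a tumor left out. In groups 9 to 13, 1 gene had all early tumors above all E8 tumors in normalized counts, as had 70 of the 21261 genes tested. Without the E6 back tumor the 3 medians were 0.30, 0.36 and 0.23, and among intracranial tumors alone they were -0.54, -0.66 and 0.25. Without the E6 intracranial tumor they were 0.35, 0.94 and 1.05, and against the E8 tumors aged 100 days or more alone they were 1.43, 3.89 and 4.4. The size of the Hox difference, and for the first 2 lists its direction, thus changed with the tumors compared.

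Genes of the other embryonic territories gave no common direction. The 20 epiblast and primitive streak genes had a median of -0.75, which was 0.14 without the E8 intracranial tumor aged 90 days and 0.33 against the E8 tumors aged 100 days or more. Nanog, a factor of the naive epiblast, was at 0, 0 and 0.0976 TPM in the early tumors, and Fgf5, of the primed epiblast, was at or under 0.0419. Their highest E8 levels were 74.4 and 46.6 TPM, each with an E8 median under 0.3 TPM. The 17 paraxial mesoderm and somite factors had a median of -0.66, which was -0.16 without the E8 tumor aged 115 days and 0.41 against the E8 tumors aged 100 days or more. Meox1 was at 0.503 to 4.08 TPM against 1.78 to 241, and Pax1, a sclerotome factor, at 0.0397 to 1.23 against 0 to 90.8. The 17 lateral plate and cardiac factors had a median of 0.28, or -1.64 without the E7 tumor. Hand2, of heart, limb and branchial arch mesenchyme, was at 75.8, 4.90 and 17.0 TPM against 0 to 8.79, and Tbx2 was at 2.71, 45.0 and 37.2 TPM against 7.64 to 270. The 10 endoderm factors that could be tested had a median of 0.59, or -0.01 without the E6 back tumor. Foxa1 was at 0.857 to 2.97 TPM against 0 to 2.47, and Sox17 at 0.911 to 3.22 against 0.363 to 2.72. Another endoderm factor, whose mean count was under 50, was the only 1 of the 10 with an unadjusted p under 0.05. It was higher in the early tumors, beside 2.53% of all genes tested in that direction.

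The 20 neural progenitor factors had a median of -1.48, with 14 negative, and Dlx1 and Dlx2 were the members of smallest p. The median was -0.09 by DESeq2, -0.42 with an expression filter, and -0.65 and -0.72 without the E8 intracranial tumors aged 52 and 115 days, and it was -2.79 without the E6 intracranial tumor. Their summed level nevertheless overlapped widely, at 61.2, 85.0 and 293 TPM in the early tumors and 77.0 to 442 TPM in the E8 tumors. Neuron markers had a median of 0.15, which was -0.34 without the E6 intracranial tumor and 0.79 without the E8 tumor aged 52 days. Gad1, the enzyme that makes GABA, was at 174, 9.13 and 70.6 TPM in the early tumors and at 0.197 to 15.6 TPM in the E8 tumors, while Stmn2, a marker of postmitotic neurons, was at 2.42 to 13.5 TPM against 2.61 to 449.

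Genes of 3 signaling pathways were read in turn. Of 40 Wnt pathway genes, 12 were positive and 28 negative with a median of -0.71 (-1.35 without the E6 intracranial tumor), and 3 and 5 had an unadjusted p under 0.05, beside 2.53% and 0.988% of all genes tested, of which 12793 of 21261 were negative. Wnt7b was at 148, 2.91 and 118 TPM in the early tumors and at 0.124 to 23.5 TPM in the E8 tumors. Wnt9a was at 271 TPM in the E7 tumor but at 3.73 and 6.19 TPM in the E6 tumors, inside the E8 range of 1.03 to 15.8. Of 28 BMP and TGF-beta genes the median was -0.42, which was -0.16 without the E6 back tumor, -0.82 without the E6 intracranial tumor and 0.37 among intracranial tumors. Bmp5 was at 245 TPM in the E7 tumor, 58.4 in the E6 intracranial tumor and 0.0548 in the back tumor, against 0.0468 to 6.88. Bmp3, a ligand that opposes bone-forming BMPs, was at 0.145 to 0.290 TPM against 0.243 to 64.5.

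The 32 FGF, PDGF and IGF genes were split evenly, 16 positive and 16 negative, with a median of 0.03 that was -0.66 without the E6 intracranial tumor. Igfbp3, a binding protein that controls the supply of insulin-like growth factors, was at 2448, 429 and 896 TPM in the early tumors and at 72.4 to 426 TPM in the E8 tumors, with a median of 220. The groups were just apart in TPM and overlapped in normalized counts. Its log2 difference was 2.45 ± 0.56, and DESeq2 called it with an adjusted p of 0.0414, a call lost in 5 of the 11 fits with a tumor left out. Without the E6 back tumor the difference was 1.46. Fgf1 was at 637, 35.6 and 13.5 TPM against 1.08 to 51.3, so only the back tumor lay outside the E8 range.

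Col4a1 and Col4a2, which encode the chains of basement membrane collagen IV and sit head to head on chromosome 8, were the matrix genes that separated the groups. Col4a1 was at 1396, 579 and 769 TPM in the early tumors and at 37.0 to 327 TPM in the E8 tumors, with a median of 106. Col4a2 was at 587, 289 and 279 TPM against 26.4 to 204, with a median of 76.1. Every early tumor was above every E8 tumor for both genes, as for 0.371% of genes whose mean count reached 50, with log2 differences of 2.45 ± 0.62 and 1.79 ± 0.58, while neither was called by edgeR or by DESeq2. Of the 20 collagen and matrix genes, 13 were negative, beside 12793 of 21261 over all genes, and the median was -0.19, or -0.89 without the E7 tumor. An unadjusted p under 0.05 was found for 2 higher and 3 lower members, beside 2.53% and 0.988% of all genes tested.

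**Figure D3:**
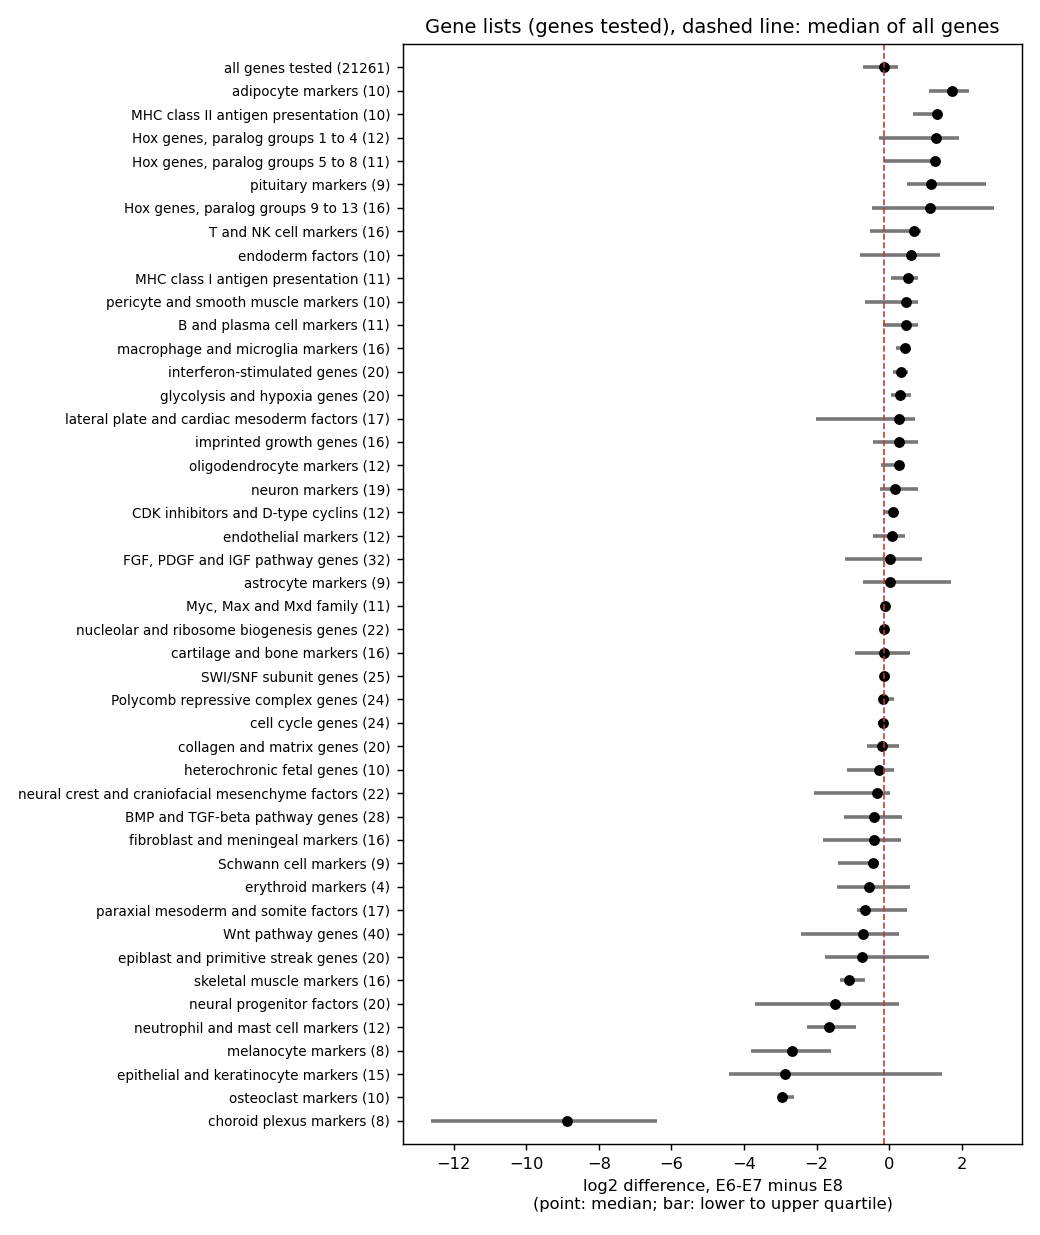
Median (point) and lower to upper quartile (bar) of the log2 difference, E6-E7 minus E8, for 45 gene lists with the number of genes tested in brackets, beside all 21261 genes tested at the top (dashed line, median -0.13). The Hox lists lie to the right at 1.12 to 1.28, the cell cycle, ribosome biogenesis, SWI/SNF and Polycomb lists sit near the dashed line, and choroid plexus markers lie far to the left at -8.89.

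Several list medians followed 1 tumor. Of 46 lists, sex-linked genes included, 26 had a median whose sign turned in at least 1 of the 11 fits that left out a tumor. In bulk tissue, fewer cells of a type and less RNA per cell cannot be told apart. The 8 choroid plexus markers had a median of -8.89, and their summed level was 205800 TPM in the E8 intracranial tumor aged 115 days against 3.52 to 133 TPM in the other 10 tumors. Without that tumor the median was -0.82. Otx2 was at 387 TPM there and at or under 0.704 TPM elsewhere. The 8 melanocyte markers had a median of -2.67, with 145 TPM summed in the same tumor and 3.07 to 36.1 TPM elsewhere, and the median was -1.08 without it. Oca2 was at 66.1 TPM and Mitf at 60.4 TPM in that tumor. The 10 osteoclast markers were all negative with a median of -2.95, and the E8 mouth tumor held 31550 TPM of them against 58.2 to 4018 TPM in the other E8 tumors and 220 to 1684 TPM in the early tumors. Without the mouth tumor the median was 0.06, and by DESeq2 it was 0.10. Ocstamp, which acts in the fusion of osteoclast precursors, was at 355 TPM in the mouth tumor, whereas Calcr, the calcitonin receptor, was highest in the nose tumor at 99.1 TPM.

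Skeletal muscle markers had a median of -1.12, with a summed level of 8.53 to 193 TPM in the early tumors and 872 TPM in the E8 jaw tumor aged 123 days. The median was 0.41 without that tumor and -4.47 without the E6 back tumor. Among the muscle genes Tnnt3 was at 0.991 to 26.7 TPM against 0.244 to 161, and Actn3 at 1.13 to 6.14 against 0.221 to 32.1. Epithelial and keratinocyte markers had a median of -2.87 by edgeR and of 1.71 by DESeq2, and of 1.69 by edgeR without the jaw tumor aged 123 days, so no direction can be read for this list, and the summed level was 221 to 3316 TPM against 17.0 to 2230. Krt7, a keratin of simple epithelia, was at 121, 24.3 and 1.59 TPM against 0.105 to 4.43, and DESeq2 called it (adjusted p = 0.00621) except without the back tumor. Cartilage and bone markers had a median of -0.14, which was -1.75 without the E7 tumor and 0.29 without the E6 intracranial tumor, and a summed level of 815 to 2754 TPM in the early tumors and 624 to 35830 TPM in the E8 tumors. Mgp, an inhibitor of calcification, was at 169 to 1106 TPM against 82.9 to 33710, and Acan, a cartilage proteoglycan, was at 16.6 TPM in the E7 tumor and at most 1.05 TPM elsewhere.

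The E6 intracranial tumor held pituitary genes, and the list's median of 1.15 was -3.87 without it, 5.10 without the E8 intracranial tumor aged 106 days and 4.04 by DESeq2. The summed level of 10 pituitary markers was 344 TPM there and 1.74 and 2.02 TPM in the other early tumors, and among the E8 tumors it was 425 TPM in the intracranial tumor aged 106 days and 93.6 TPM in the one aged 115 days, with the other 6 at 0.640 to 12.98. Pomc, the hormone precursor of corticotrophs, was at 94.7 TPM and Pitx1 at 10.7 TPM in the E6 intracranial tumor, against highest E8 values of 108 and 11.8. The E6 back tumor held fat genes. Adipocyte markers summed to 402 TPM there, against 12.6 and 16.0 in the other early tumors and 13.1 to 89.7 in the E8 tumors. Fabp4 was at 262 TPM and Pparg at 7.81 TPM in that tumor, and the list's median was 1.73, or -2.22 without it. Dcn, a small proteoglycan of fibroblasts, was at 5750 TPM in it, at 18.2 and 589 TPM in the other early tumors, and at 34.0 to 701 TPM in the E8 tumors. The 16 fibroblast and meningeal markers had a median of -0.43, or -1.51 without the E7 tumor, which held the highest sum of them at 8142 TPM. Foxd1 was at 0 to 1.52 TPM against 0.119 to 43.1.

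Glial and vascular markers had medians without a common direction. Oligodendrocyte, astrocyte, Schwann cell, endothelial and pericyte lists had medians of 0.26, 0.02, -0.45, 0.08 and 0.46. The astrocyte median was 1.52 by DESeq2, 1.57 without the E8 tumor aged 115 days and -1.06 without the E7 tumor, and the pericyte median was -0.84 without the E7 tumor. The Schwann cell median was 0.01 without the E8 tumor aged 106 days and -1.06 and -1.14 without the E6 back and E6 intracranial tumors, the oligodendrocyte median -0.12 without the E7 tumor and the endothelial median -0.06 without the E7 tumor and 0.40 without the E6 intracranial tumor. Of their leading genes, Aldoc was at 7.60 to 40.6 TPM against 1.37 to 22.9, Slc1a2 at 0.0695 to 12.5 against 0.0491 to 3.95, Prx at 2.03 to 5.62 against 1.52 to 14.6 and Ngfr at 0.185 to 1.09 against 0.391 to 27.0. Rgs5 of pericytes was at 63.5 to 94.9 TPM against 10.2 to 95.3, and Tagln of smooth muscle at 11.8 to 47.7 against 2.24 to 16.8. Esam and Vwf of endothelium were at 9.06 to 54.1 and 1.33 to 20.5 TPM against 7.48 to 28.2 and 0.306 to 8.43. Cnp and Cldn11 of oligodendrocytes were at 26.4 to 69.8 and 0.336 to 7.54 TPM against 18.0 to 53.5 and 0.546 to 23.2. Erythroid markers were scarce, with a summed level of at most 6.49 TPM in any tumor and a median of -0.55 over the 4 that could be tested, or 1.23 without the jaw tumor aged 123 days.

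**Figure D4:**
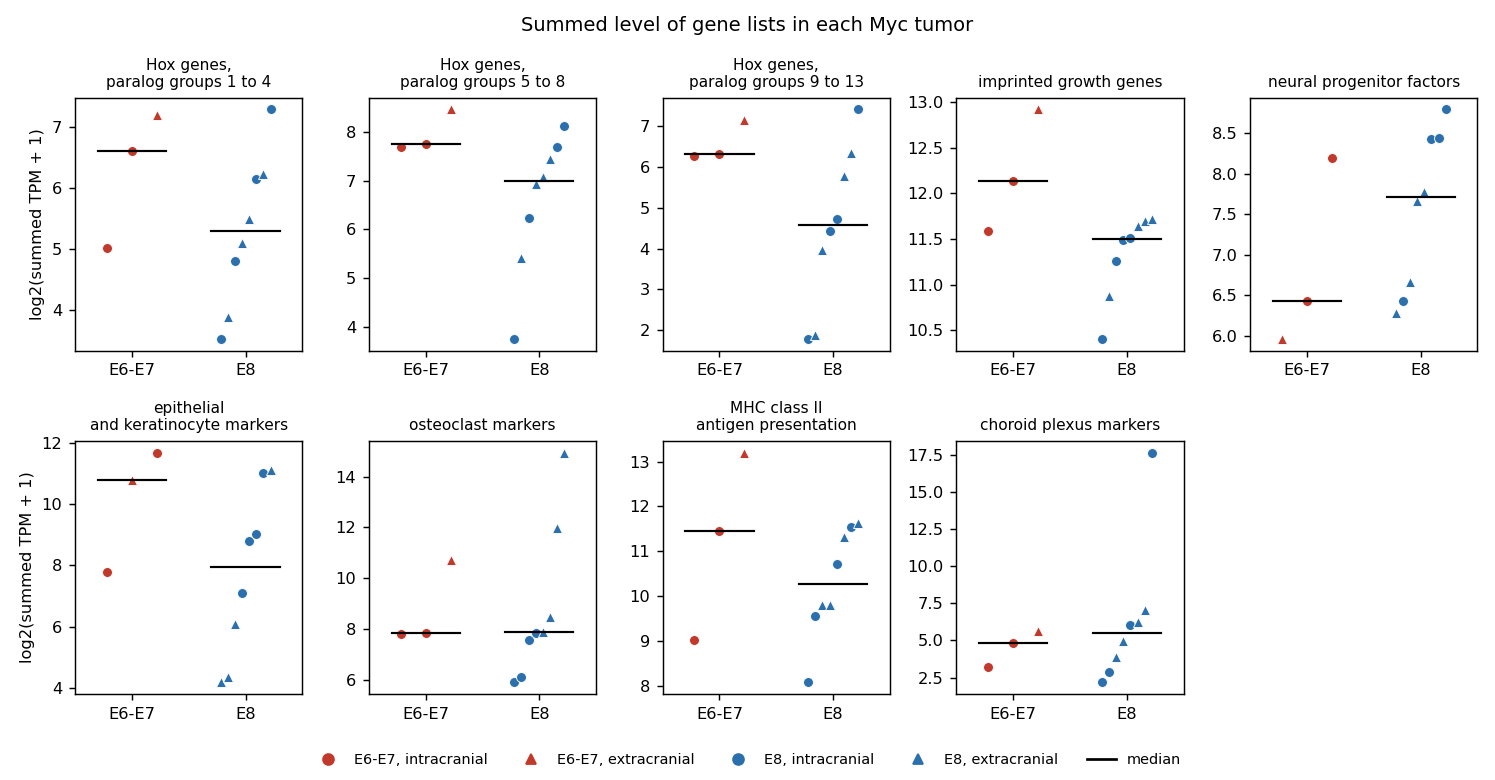
Summed level of 9 gene lists in each tumor as log2(summed TPM + 1), with E6-E7 tumors in red, E8 tumors in blue, circles for intracranial and triangles for extracranial tumors and a line at the group median. Single tumors stand far above the rest for choroid plexus markers (205800 TPM) and osteoclast markers (31550 TPM), and for Hox groups 5 to 8 the E6 back tumor lies above the E8 range and the other early tumors inside it.

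The summed levels of MHC class II genes and of macrophage markers were highest in the E6 back tumor, and that of MHC class I genes in the E6 intracranial tumor. All 10 MHC class II genes were positive with a median of 1.33, but the summed level was 9400 TPM in the back tumor, 2796 in the E7 tumor and 520 in the E6 intracranial tumor, against 268 to 3152 in the E8 tumors. H2-Eb1 and H2-Ab1 were at 1396 and 1667 TPM in the back tumor, and without it their log2 differences were -0.05 and -0.11 and the median of the list was -0.20. Macrophage and microglia markers had a median of 0.43, with 9127 TPM summed in the back tumor and 815 to 6503 TPM in the E8 tumors, and the median was -0.41 without the back tumor. Adgre1 was at 181, 42.5 and 53.2 TPM against 10.4 to 113, and Tmem119 at 14.4 to 32.0 against 9.46 to 126. The part of macrophage content in the class II levels was not tested. MHC class I genes had a median of 0.51, 8 of 11 positive, and of 0.05 without the back tumor. H2-K1, a classical class I heavy chain, was at 1490, 1682 and 601 TPM against 226 to 989, and its activator Nlrc5 at 18.7, 64.5 and 14.1 TPM against 1.77 to 21.5.

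Interferon-stimulated genes had a median of 0.32, 16 of 20 positive, or 0.16 without the mouth tumor, with Irf7 at 250 to 313 TPM against 18.1 to 333 and Ifit2 at 59.0 to 82.5 against 10.0 to 79.1. T and NK cell markers had a median of 0.67, or -0.35 without the E6 back tumor, with Prf1 at 0.249 to 1.68 TPM against 0.111 to 24.9 and Gzmb at 0.315 to 4.44 against 0.454 to 27.0. B and plasma cell markers had a median of 0.46, or -0.63 without the E6 back tumor, with Blk at 13.1 TPM in the E7 tumor and at most 1.14 elsewhere and Cd79b at 0.580 to 11.6 against 0.961 to 9.01. Neutrophil and mast cell markers had a median of -1.65, or -0.94 without the jaw tumor aged 123 days, with S100a9 at 32.7 to 42.7 TPM against 0.988 to 522 and Retnlg at 1.32 to 4.83 against 0.122 to 57.0.

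The programs of growth and chromatin lay near the background median of -0.13. Cell cycle genes had a median of -0.18 with quartiles of -0.31 and -0.04, nucleolar and ribosome biogenesis genes -0.14, the Myc, Max and Mxd family -0.12, SWI/SNF subunits -0.14, Polycomb genes -0.16 and CDK inhibitors and D-type cyclins 0.09. Without the E6 intracranial tumor the cell cycle median was 0.07 and that of CDK inhibitors and D-type cyclins -0.07. Without the E7 tumor the cell cycle median was -0.41. The nucleolar median was -0.25 without the E8 tumor aged 115 days, and that of the Myc, Max and Mxd family was -0.02 without the E6 back tumor. Against the E8 tumors aged 100 days or more the cell cycle and nucleolar medians were 0.26 and 0.20, beside -0.02 over all genes. With age as a covariate they were 0.32 and 0.47, beside -0.14. None of the 118 genes tested in these lists had an unadjusted p under 0.05, beside 3.51% of all genes tested. The mitotic kinase Cdk1 was at 29.5 to 50.4 TPM against 6.13 to 85.9, with a log2 difference of -0.40 ± 0.54, and Ccnb2 was at 23.7 to 58.2 against 3.66 to 114. The nucleolar genes Nop16 and Polr1a differed by 0.62 ± 0.37 and -0.58 ± 0.42, and Nop16 by 0.09 without the E6 back tumor and Polr1a by -0.33 without the E8 tumor aged 115 days. Max and Mxi1, partners and antagonists of Myc, differed by -0.23 ± 0.22 and -0.21 ± 0.31. The SWI/SNF subunits Bcl7a and Phf10 differed by -1.04 ± 0.62 and -0.30 ± 0.20 (Phf10 by -0.14 without the E7 tumor), and the Polycomb genes Mtf2 and Rnf2 by -0.52 ± 0.29 and 0.53 ± 0.30, and Rnf2 by 0.10 without the E6 back tumor. Ccnd3 and Cdkn1a differed by -0.66 ± 0.54 and 0.45 ± 0.54, and with each tumor left out the values ran from -1.30 to -0.39 and from 0.28 to 0.73. The E8 tumor rich in Ttr held the lowest summed cell cycle level, 249 TPM, against 608 to 2223 TPM in the other 10 tumors.

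Genes of metabolism and of developmental timing showed more spread. Glycolysis and hypoxia genes had a median of 0.31, 15 of 20 positive, or -0.06 without the E6 intracranial tumor. Slc2a3, a high-affinity glucose transporter, was at 3.87, 2.81 and 5.30 TPM against 2.67 to 234 with a median of 28.2, and DESeq2 called it (adjusted p = 0.0265), a call lost in 5 of 11 fits with a tumor left out. Its edgeR log2 difference of -4.42 was -1.15 against the E8 tumors aged 100 days or more and -0.13 with age as a covariate. The latter fit has to extrapolate, because the ages of the groups did not overlap, so it does not tell age from day. Bnip3 was at 58.7 to 246 TPM against 23.5 to 104. Imprinted growth genes had a median of 0.28, or -0.15 without the E6 intracranial tumor, and their summed level was 7769, 3066 and 4512 TPM against 1349 to 3367 TPM. Dcn, which is also on this list, held 5750 TPM of that sum in the E6 back tumor. It held 18.2 and 589 TPM in the other early tumors and 34.0 to 701 TPM in the E8 tumors, so the high sum of the back tumor rested mostly on 1 gene. Mest, an imprinted gene of embryonic mesoderm, was at 9.22 to 15.5 TPM against 3.97 to 826. Heterochronic fetal genes had a median of -0.28, which ran from -0.84 without the E7 tumor to 0.06 without the E8 intracranial tumor aged 90 days, with Igf2bp3 at 0.602 to 2.0 TPM against 0.0851 to 33.9 and Arid3a at 13.6 to 16.3 against 4.0 to 16.3.

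Across the transcriptome, pairs of tumors within the E6-E7 group or within the E8 group did not correlate more closely than pairs across the groups. Over the 5000 genes of highest interquartile range, the Pearson correlation of log2 CPM was 0.658 ± 0.056 (SD) within the 3 early pairs, 0.656 ± 0.096 within the 28 E8 pairs and 0.678 ± 0.069 over the 24 mixed pairs. Within minus between was -0.022 (exact two-sided permutation of the tamoxifen group, p = 0.545). The nearest tumor of every early tumor was an E8 tumor: the intracranial one aged 106 days for the E7 tumor (0.772) and the E6 intracranial tumor (0.774), and the jaw tumor aged 123 days for the E6 back tumor (0.726). Because E8 tumors outnumbered early ones 8 to 3, an E8 tumor was the likelier nearest one in any case. Each correlation is across genes, which are not independent replicates, and pairs that hold the same tumor are not independent of each other.

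The early tumors were also not nearer, as a group, to the intra-CNS tumors, which were all induced on a day of the early group. The mean correlation with the 5 intra-CNS tumors was 0.373 ± 0.120 (SD, n = 3) in the early group and 0.376 ± 0.055 (SD, n = 8) in the E8 group, a difference of -0.002 (exact two-sided permutation test, p = 0.958). The spread lay within the early group, where the back tumor was the lowest of all 11 at 0.235 and the intracranial tumors were at 0.435 and 0.450. The E8 tumors ran from 0.296 to 0.450. Among intracranial tumors alone the difference was 0.047, in the opposite direction.

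**Figure D5:**
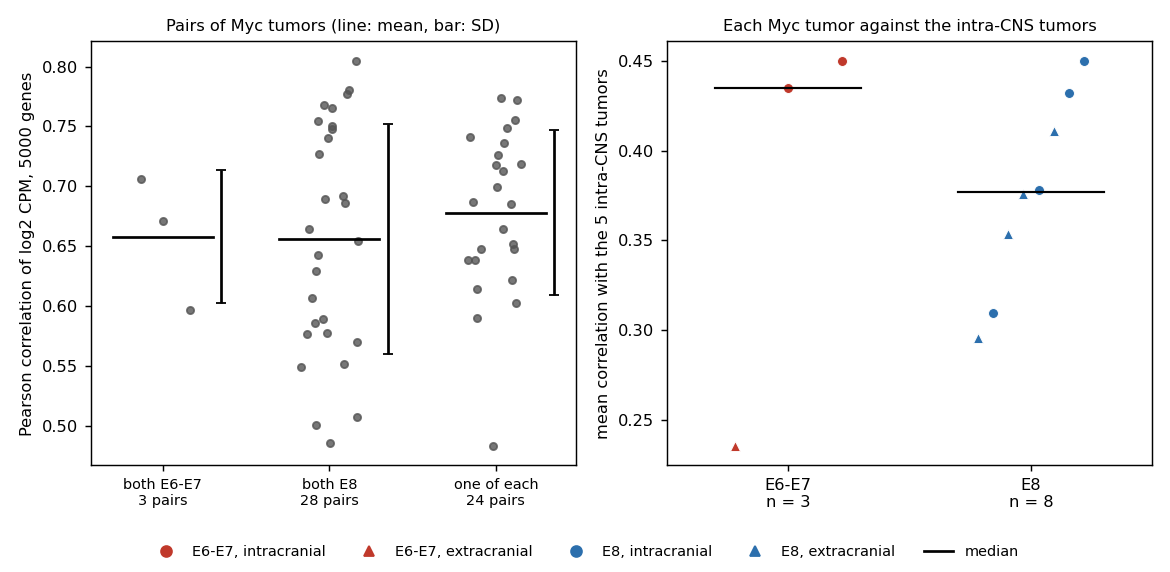
Left, Pearson correlation of log2 CPM over 5000 genes for each pair of the 11 Myc tumors, with the mean (line) and SD (bar) of 3 early, 28 E8 and 24 mixed pairs. Right, mean correlation of each tumor with the 5 intra-CNS tumors, where the E6 back tumor is lowest at 0.235 and the other early tumors lie at 0.435 and 0.450 within the E8 range.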

How the data were processed

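RNA of 16 mouse tumors was sequenced as stranded polyA libraries, 100 bp paired-end. Per the labels and the study's methods, the authors aligned reads to mm10 with STAR 2.5.3a and deposited raw counts per gene and, in another table, TPM. The annotation and the strand setting of the counting are not given in the sources used here. The deposited counts were tested and the deposited TPM give levels. The subgroup name comes from the study's mouse table and the groups from the labels.

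Genes with a count in any of the 11 tumors were fitted with edgeR 4.0.16 (TMM, quasi-likelihood), called where the adjusted p was under 0.05 with a log2 difference beyond 1 in either direction, with SE from the F statistic. DESeq2 1.42.0 and limma 3.58.1 (R 4.3.3) and other alternatives are given in the closing section, and edgeR was tested on simulated data. DESeq2 ran with its defaults, under which outlying counts in a group as large as E8, but not in the early group, are replaced before the fit. Correlations used log2 CPM with a prior count of 2 and exact permutation of the tamoxifen group over the 11 tumors.

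Named genes were, in each direction, the 8 of smallest p whose groups did not overlap where the mean count reached 50 (unnamed gene models left out). Also named were Smarcb1, Myc, sex-linked genes and, in each of 46 lists, the 2 members of smallest p among those whose mean count reached 50. Members of smaller p but lower counts were passed over, and no erythroid marker reached that count. Dlx1as, Dlx5, Dlx6, Sfrp4, Syt13, Galnt15, Alx1, Hoxd3, E230032D23Rik and 3830403N18Rik were named after their values were seen. The tumors compared and the lists were chosen with earlier results of these data known. Each tumor came from a separate mouse. Counting floors cover counting error only. Some items are not reported here.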

Additional observations from a re-analysis of the deposited data

Results flagged for a closer look

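Among the 8 E8 tumors, 65 values were examined for 1 tumor lying far from the rest by Dixon's criterion. The values were log2(TPM + 1) of a gene, its mean over a list, or a correlation with other tumors. In all, 10 were found, where chance gives about 1 in 20. Of these, 4 concerned the intracranial tumor aged 115 days: it was highest for choroid plexus markers (mean 10.61) and melanocyte markers (2.622) and lowest for cell cycle genes (2.661) and nucleolar and ribosome biogenesis genes (4.929). The jaw tumor aged 123 days gave 3, being highest for skeletal muscle markers (4.021), epithelial and keratinocyte markers (5.236) and erythroid markers (0.4346). The intracranial tumor aged 106 days was highest for pituitary markers (2.445), the jaw tumor aged 80 days for Prkg2 (4.43) and the mouth tumor for Rapgef6 (4.87).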

How the results depend on the processing

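No paired analysis was possible because the groups share no mouse. The count of genes called was 0 by edgeR with TMM and stayed at 0 with DESeq2's size factors, an expression filter, no fold threshold, limma, covariates for site, scheme of mouse names or age, intracranial tumors alone, the older E8 tumors alone and all 16 tumors in the fit. It was 39 by DESeq2 (21 higher, 18 lower) and 1 with the 2 E6 tumors alone against E8 (1 higher), and leaving out each tumor gave 0 to 1 in all and 0 to 1 higher. Refits of DESeq2, chosen after seeing the data, gave a count of 38 to 167 when each tumor was left out and of 50 with site as a covariate. The cause of the difference between the tools was not tested. Within minus between correlations kept their sign and their side of the threshold in all 16 alternatives. The difference in correlation with the intra-CNS tumors was 0.00068 by Spearman correlation, 0.04733 among intracranial tumors and -0.04197 to 0.06331 when each tumor was left out.

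Of 109 genes named by the rule, 32 turned direction in at least 1 alternative, none of them called by edgeR. Genes named after their values were seen, such as Syt13 and Galnt15, are not part of this count. The fit with age as a covariate has to extrapolate, because the ages of the groups did not overlap. With age as a covariate the log2 differences were Nanog 2.48, Hoxd9 -0.36, Stmn2 1.10, Cnp -0.81, Dcn -0.21, Fabp4 -5.47, Pparg -1.70, Pomc -4.36, Pitx1 -5.82, Prf1 4.03, Gzmb 1.36, Cd79b -0.99, Adgre1 -1.09, H2-Eb1 -0.98, H2-Ab1 -1.02, Ccnb2 0.07, Cdk1 0.51, Max 0.01, Mtf2 0.00 and Igf2bp3 1.79. Among intracranial tumors they were Hoxa2 -0.61, Cnp -0.07, Dcn -0.22, Fabp4 -1.06, Pparg -0.90, Cd79b -0.07 and Mxi1 0.01. With E6 tumors alone they were Slc1a2 -1.17, Acan -0.56, Vwf -0.08, Blk -0.21, Wnt9a -0.22 and Smarcb1 0.09. With the E8 tumors aged 100 days or more they were Pomc -0.22, Pitx1 -0.15, Ccnb2 0.07, Cdk1 0.26, Max 0.03 and Igf2bp3 1.64. With the naming scheme as a covariate Pitx1 was -0.97 and Smarcb1 0.03, by limma Smarcb1 was 0.03, and by DESeq2 Ocstamp was 0.12 and Prf1 0.34. When each tumor was left out the ranges were -3.84 to 5.68 for Pax3, -0.33 to 0.56 for Cnp, -1.17 to 2.27 for Slc1a2, -2.60 to 0.14 for Tnnt3, -0.56 to 4.26 for Acan, -5.06 to 0.07 for Ocstamp, -0.08 to 1.63 for Vwf, -2.17 to 2.62 for Fabp4, -0.62 to 1.44 for Pparg, -3.87 to 5.34 for Pomc, -5.15 to 4.08 for Pitx1, -3.46 to 0.31 for Prf1, -0.21 to 3.60 for Blk, -1.01 to 1.18 for Cd79b, -0.31 to 1.05 for Adgre1, -0.05 to 2.0 for H2-Eb1, -0.11 to 1.89 for H2-Ab1, -0.55 to 0.04 for Mxi1, -0.22 to 4.46 for Wnt9a, -0.74 to 0.25 for Smarcb1 and -0.35 to 0.42 for Myc. Of 1012 list medians recomputed, 844 moved by less than 1 SD of the E8 tumors. The median over all genes moved from -0.13 to -0.02 when only E8 tumors aged 100 days or more were used.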

Other observations

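Some genes outside the lists and the naming rule, picked after their values were seen, also kept the groups apart in normalized counts. Tnfrsf22 and Tnfrsf26, neighbouring members of the tumor necrosis factor receptor family of which Tnfrsf22 is a decoy receptor for TRAIL, were at 38.1 and 158 TPM in the E6 back tumor, 60.6 and 301 in the E6 intracranial tumor and 144 and 102 in the E7 tumor. In the E8 tumors Tnfrsf22 was at 8.12 to 38.9 TPM, overlapping the back tumor on this scale, and Tnfrsf26 at 0.373 to 40.4 TPM with a median of 2.47. Tnfrsf23, the other decoy receptor of the cluster, was at 84.5, 6.001 and 348 TPM against 11.4 to 77.2 and did not separate them. DESeq2 called Tnfrsf26 (adjusted p = 0.0346) and edgeR called none of them.

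S100a7a, a calcium-binding protein of inflamed epithelium, was at 131, 55.2 and 99.4 TPM in the early tumors and at 0.591 to 36.6 TPM in the E8 tumors. Gadd45g, a stress-response gene, was at 209, 170 and 220 TPM against 7.16 to 150 TPM. Sox8, a transcription factor of neural crest, glia and testis, was at 11.8, 2.49 and 3.54 TPM against 0.370 to 2.38. Csf3, the growth factor of neutrophils, was at 6.54, 52.1 and 6.59 TPM against 0.200 to 4.54, while the neutrophil and mast cell markers summed to 83.3 to 112 TPM in the early tumors, inside the E8 range of 3.54 to 945. None of these genes was called by edgeR or DESeq2.

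Angptl7, a secreted protein of meninges and cornea, was the most counted gene of the E6 intracranial tumor, with 1.48% of its counts and 17250 TPM, and it reached 6008 TPM in the E8 jaw tumor aged 80 days and at most 435 TPM in the other 9 tumors.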
